A study of Mus musculus with 8 samples.

Results

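Cadherins are calcium-dependent adhesion proteins that join neighbouring cells, and the family also holds the protocadherins, the Celsr receptors and the very large Fat and Dachsous proteins. Their transcripts were compared between Neuro2a cells growing attached to plastic and Neuro2a cells growing in suspension. Members were all genes on the array whose symbol places them in the Cdh, Pcdh, Celsr, Fat or Dchs families. There were 65 such genes among 19938 genes with a transcript cluster of their own, a transcript cluster being the set of probes that the array summarises into a single signal. The 65 genes were read by 83 of 35556 transcript clusters, and the brightest cluster by the mean of all arrays stood for each gene. Of 102 family symbols in the RefSeq gene table for mouse, the 14 Pcdha genes, the 22 Pcdhg genes and Dchs2 had no cluster of their own and were not analysed here, except for a cluster shared by the Pcdha genes that is given separately.

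Classical cadherins bind the same cadherin on the next cell and hold actin through the catenins. Clustered protocadherins are encoded by tandem arrays of similar genes, of which each neuron uses a subset as a surface identity for recognising its own branches. Celsr, Fat and Dachsous proteins orient cells within a tissue and are tied to planar polarity and growth control.

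Neuro2a is a mouse neuroblastoma line with properties of sympathetic neuroblasts, and the labels give its background strain as AJ. The anchorage-dependent (AD) cells grew attached in DMEM with 10% fetal bovine serum, 0.5% penicillin and streptomycin and 10% L-glutamine. The anchorage-independent (AI) cells, labelled as resistant to anoikis (death on loss of attachment), grew in suspension in a serum-free neural stem cell medium, to which heparin (2 µg/ml) and the growth factors bFGF (10 ng/ml) and EGF (20 ng/ml) had been added. Each phenotype had 4 arrays, and the labels name no transgene or allele. Medium and attachment changed together, so their parts cannot be told apart. The labels call the replicates biological while the methods describe repeated hybridisations, and p-values measure only the spread between these arrays, which may be technical.

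Values are log2 signals as the authors deposited them, and every difference is AD minus AI, so that a negative difference is a higher signal in AI cells. A gene was called where the adjusted p of limma over all clusters was under 0.05 and the difference was at least 1.5-fold. Array medians ran from 5.82 to 5.92 in AD cells and from 5.92 to 5.99 in AI cells, and a signal below its array median was treated as dim, not as absent. Of the sympathetic neuroblast markers, 9 of 11 had a cluster of their own and all 9 lay above the median on every array. Their summed signal was 86.91 to 88.71 in AD cells and 82.50 to 83.30 in AI cells, or 77.85 to 78.90 and 76.13 to 76.68 without Dbh, which differed by 3.01. Of the 9, Phox2a, Th and Dbh were called higher in AD cells, Gata3 (0.31) and Isl1 (0.34) passed the adjusted p in that direction below 1.5-fold, Chgb passed it with a higher AI signal (-0.49, limma adjusted p 0.000204), and Hand2, Chga and Stmn2 did not pass (-0.00, 0.06 and -0.05). Markers of fibroblasts (4 of 6), Schwann and glial cells (3 of 3), epithelium (4 of 5), endothelium (4 of 5) and leukocytes (4 of 4) lay below the median on every array, and none of the markers in these lists was called. The epithelial keratin Krt8 lay above the median on all 8 arrays and passed the adjusted p with a 1.38-fold higher AI signal (-0.46, limma adjusted p 0.0461), though its groups overlapped. The endothelial marker Pecam1 also lay above the median on all 8 arrays (-0.18, limma adjusted p 0.36). The fibroblast markers Pdgfra and Col1a1 did so on 7 arrays and on 1 array. Whether these marker differences have a part in the results was not tested, and in bulk RNA fewer cells of a type and less RNA per cell cannot be told apart.

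The called differences lay in the beta protocadherins. Of the 65 genes, 8 were called higher in AI cells, all of them Pcdhb genes, where 2.53% of all clusters were called in that direction. No member was called higher in AD cells, where 1.39% of all clusters were, and the analysis of variance without moderation also called 0 while limma gave 5 members at an unadjusted p under 0.05 in that direction, against 14.6% of all clusters. In either direction 3.93% of all clusters were called. With the fold requirement dropped, 22 members passed the adjusted p with a higher signal in AI cells, against 9.62% of all clusters, and 3 with a higher signal in AD cells, against 8.50%. Every AI array lay above every AD array for 24 members, against 11.5% of all clusters. The median difference was -0.05 over the 65 genes, -0.44 over the 22 Pcdhb genes and 0.04 over the other 43, beside -0.00 over all clusters. With arrays centred on their medians, the median over the 65 genes was 0.02 beside 0.08 over all clusters.

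**Figure D1:**
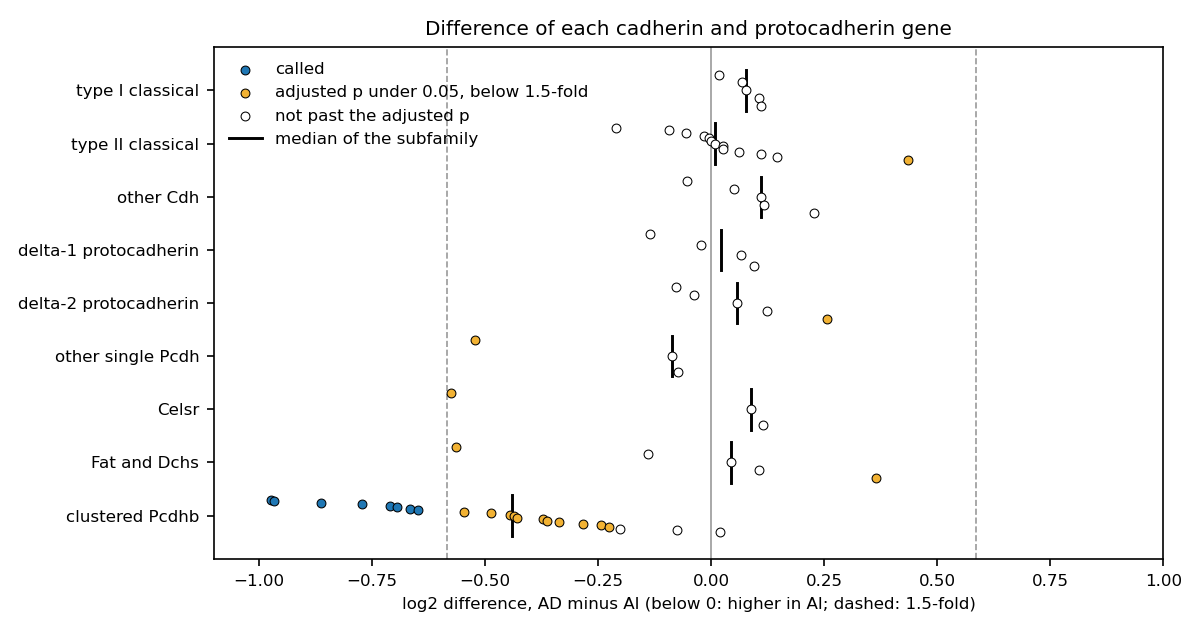
Difference of each of the 65 genes on the log2 scale (AD minus AI, horizontal axis) by subfamily (vertical axis). Filled blue points are called genes, orange points passed the adjusted p below 1.5-fold, open points did not pass, black bars are subfamily medians and dashed lines mark 1.5-fold. All 8 called genes lie in the Pcdhb row, whose median is -0.44.

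The beta protocadherins are transmembrane proteins of neurons whose genes lie side by side on mouse chromosome 18, each with its coding sequence in a single exon. All 22 had a cluster of their own. Of these, 8 were called higher in AI cells (36.4%), a further 11 passed the adjusted p below 1.5-fold, and 3 did not pass. The AI arrays lay entirely above the AD arrays for 20 of the 22. Of all clusters 2.53% were called higher in AI cells and 11.5% had every AI array above every AD array. Members of this array of genes are similar in sequence, so a probe set may also read a neighbour, and how many of the 22 differences are separate was not tested.

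The widest difference was that of Pcdhb17, with signals of 5.85, 5.81, 5.83 and 5.97 in AD replicates 1 to 4 and 6.60, 6.81, 6.94 and 7.00 in AI replicates 1 to 4. Its AI signal was 1.96-fold the AD signal (difference -0.97, SE 0.09, limma adjusted p 0.000135). The lowest AI array was thus well above the highest AD array. Pcdhb11 gave 5.75, 5.87, 5.82 and 6.12 in AD cells and 6.80, 6.84, 7.01 and 6.79 in AI cells. It was 1.95-fold higher in AI cells (difference -0.97, SE 0.09, limma adjusted p 0.000136), again with no overlap.

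Pcdhb18 gave 6.00, 5.58, 5.96 and 6.02 in AD cells and 6.60, 6.70, 6.96 and 6.75 in AI cells. The AI signal was 1.82-fold higher (difference -0.86, SE 0.11, limma adjusted p 0.000937). AD replicate 2 stood below the other AD arrays for this gene. Pcdhb21 gave 5.33, 5.45, 5.37 and 5.42 in AD cells and 6.07, 6.22, 6.14 and 6.23 in AI cells, a 1.71-fold higher AI signal (difference -0.77, SE 0.06, limma adjusted p 4.8e-05). It was dim on all AD arrays and above the median on all AI arrays, a pattern that 3 of the 22 genes had.

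Pcdhb20 gave 5.49, 5.76, 5.95 and 5.99 in AD cells and 6.43, 6.58, 6.60 and 6.42 in AI cells. Its AI signal was 1.63-fold higher (difference -0.71, SE 0.11, limma adjusted p 0.00223). The AD arrays were the more scattered, with an SD of 0.23 against 0.10 (n = 4 each). Pcdhb3 gave 6.10, 6.03, 6.04 and 6.10 in AD cells and 6.72, 6.67, 6.66 and 6.99 in AI cells, 1.62-fold higher in AI cells (difference -0.69, SE 0.08, limma adjusted p 0.000424). The groups did not overlap, and AI replicate 4 stood above the other AI arrays.

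Pcdhb5 gave 5.49, 5.25, 5.30 and 5.44 in AD cells and 6.01, 6.12, 6.06 and 5.96 in AI cells, a 1.59-fold higher AI signal (difference -0.67, SE 0.07, limma adjusted p 0.000263). It was dim on every AD array. Pcdhb16, the called gene nearest the threshold, gave 5.70, 5.31, 5.49 and 5.54 in AD cells and 6.01, 5.89, 6.34 and 6.39 in AI cells. Its AI signal was 1.57-fold higher (difference -0.65, SE 0.13, limma adjusted p 0.00717). The groups did not overlap, but the gene fell below 1.5-fold with arrays centred on their medians (-0.57), after quantile normalisation (-0.58), without AD replicate 2 (-0.58) and without AI replicate 4 (-0.57). For each of the 8 called genes the exact two-sided permutation test gave p 0.0286, the smallest that 4 arrays against 4 allow. Of the 8, 3 were dim on all AD arrays (Pcdhb5, Pcdhb16 and Pcdhb21), and 6 lay above the median on all AI arrays. Pcdhb17 lay above the median on 1 AD array, Pcdhb11 and Pcdhb20 on 2, Pcdhb18 on 3 and Pcdhb3 on 4.

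**Figure D2:**
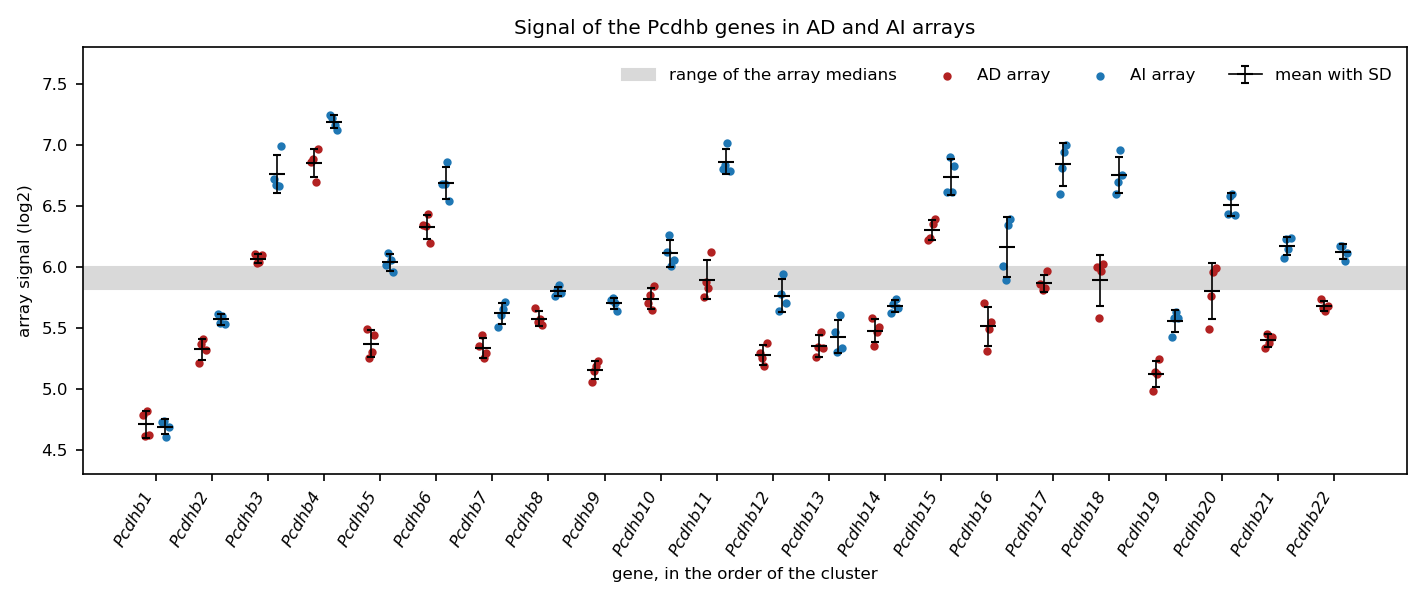
Log2 signal (vertical axis) of the Pcdhb genes (horizontal axis) on each AD and AI array, 1 point per array, with the mean and SD of 4 arrays in black and the range of the array medians as a grey band. For Pcdhb17 the AD arrays lie between 5.81 and 5.97 and the AI arrays between 6.60 and 7.00, while the arrays of Pcdhb1 overlap.

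The 11 genes that passed the adjusted p below 1.5-fold ran from Pcdhb9 at -0.55 to Pcdhb8 at -0.23. Between them lay Pcdhb12 (-0.49), Pcdhb22 (-0.45), Pcdhb15 (-0.44), Pcdhb19 (-0.43), Pcdhb10 (-0.37), Pcdhb6 (-0.36), Pcdhb4 (-0.34), Pcdhb7 (-0.28) and Pcdhb2 (-0.24). Pcdhb14 was at -0.20 with a limma adjusted p of 0.0505. Pcdhb13 was at -0.08 (adjusted p 0.586) and Pcdhb1 at 0.02 (adjusted p 0.888), and their AD and AI arrays overlapped.

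The array means of all 22 genes, which average the signals of these same genes, were 5.62, 5.60, 5.64 and 5.69 in AD replicates 1 to 4. In AI replicates 1 to 4 they were 6.07, 6.13, 6.17 and 6.13. The AD arrays held 5, 5, 6 and 8 of the genes above their median, and the AI arrays 13, 12, 13 and 12. The means of the other 43 members stayed between 5.69 and 5.73 on the AD arrays and between 5.69 and 5.72 on the AI arrays. In the RefSeq order the called genes held places 3, 5, 11, 16, 17, 18, 20 and 21 of the gene array. Thus 3 were in its first 11 places, and the 5 in its last 11 all lay within places 16 to 21.

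The Pcdhb signals lay near the array median, so dim genes elsewhere were set beside them, without matching for signal level. Whether signal level or gene structure has a part in the Pcdhb difference was not tested. Of the 22 genes, 9 were dim on every array, and 6 of these 9 passed the adjusted p with a higher AI signal. Among the 27 other members dim on every array none passed it, 1 had an unadjusted p under 0.05 with a higher AI signal, and their differences ran from -0.21 to 0.12 with a median of 0.04. Olfactory receptor genes, which also have a coding part without introns and were chosen for this after the values had been seen, numbered 1027. Of them 997 were dim on every array. Limma called 3 higher in AI cells (0.29%, beside 2.53% of all clusters) and 0 higher in AD cells (beside 1.39%). They also leaned towards AI cells, with 697 negative and 330 positive differences and a median of -0.04. With a higher AI signal 24 (2.34%) passed the adjusted p at any fold, against 9.62% of all clusters. With a higher AD signal 4 (0.39%) passed it, against 8.50%. In these directions 73 and 16 had an unadjusted p under 0.05 by limma, against 15.4% and 14.6% of all clusters.

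The alpha protocadherins are encoded by a neighbouring gene array in which every transcript shares its last exons. Their 14 symbols share a cluster, which gave 6.39, 6.45, 6.43 and 6.36 in AD cells and 6.76, 6.80, 6.75 and 6.75 in AI cells. The AI arrays lay above all AD arrays, with a 1.28-fold difference that did not reach the fold (-0.36, SE 0.05, limma adjusted p 0.00113). That signal cannot be assigned to any of the 14 genes.

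Outside the beta protocadherins no member was called in either direction by limma or by the analysis of variance. Limma gave 9 of the 43 genes (20.9%) an unadjusted p under 0.05, 5 higher in AD cells and 4 higher in AI cells, where 30.1% of all clusters had one. The adjusted p was passed below 1.5-fold by 6 genes, 3 in each direction (6.98% each). At any fold 8.50% of all clusters passed it higher in AD cells and 9.62% higher in AI cells, so neither share exceeded that of all clusters. Celsr3, a receptor-like cadherin needed for axon tracts, gave 8.16, 8.31, 8.20 and 8.17 in AD cells and 8.62, 8.80, 8.81 and 8.91 in AI cells. Its AI signal was 1.49-fold higher (difference -0.57, SE 0.07, limma adjusted p 0.000672) without overlap. It passed 1.5-fold after quantile normalisation (-0.60), without AD replicate 2 (-0.61) and without AI replicate 1 (-0.63). Of the related planar polarity receptors, Celsr1 was at 0.11 (adjusted p 0.186) and Celsr2 at 0.09 (adjusted p 0.639).

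Dchs1, a very large cadherin that binds Fat4 on the next cell, gave 8.22, 8.41, 8.38 and 8.29 in AD cells and 8.86, 8.97, 8.84 and 8.89 in AI cells. Its AI signal was 1.48-fold higher (difference -0.56, SE 0.06, limma adjusted p 0.000329), and it passed 1.5-fold after quantile normalisation (-0.59) and without AD replicate 2 (-0.59). Fat1, a cadherin that organises actin at cell edges, lay the other way, with 7.81, 7.97, 7.79 and 7.74 in AD cells and 7.51, 7.44, 7.50 and 7.41 in AI cells. Its AD signal was 1.29-fold the AI signal (difference 0.37, SE 0.06, limma adjusted p 0.00379). Neither gene's groups overlapped. Fat4 was at 0.04 (adjusted p 0.679), Fat2 at 0.10 (adjusted p 0.307) and Fat3 at -0.14 (adjusted p 0.315), and the 15 clusters of Fat3 ran from -0.14 to 0.19 with none past the adjusted p.

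Pcdh15, a protocadherin of the tip links of inner ear hair cells, gave 5.97, 6.17, 5.98 and 6.04 in AD cells and 6.66, 6.57, 6.48 and 6.54 in AI cells. The AI arrays were all higher (difference -0.52, SE 0.06, limma adjusted p 0.000693). Its clusters disagreed, since the dimmer of them gave 0.10 (adjusted p 0.413) and their mean -0.21 (adjusted p 0.0441). Pcdh17, a delta-2 protocadherin of synapses, gave 6.54, 6.47, 6.47 and 6.57 in AD cells and 6.24, 6.21, 6.28 and 6.30 in AI cells. The AD arrays were all higher, by 0.26 (SE 0.05, limma adjusted p 0.00795).

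The other single protocadherins showed no call. Pcdh1 was at -0.14 (adjusted p 0.252), Pcdh7 at 0.09 (adjusted p 0.401) and Pcdh9 at -0.02 (adjusted p 0.843) among the delta-1 genes. Pcdh10 was at -0.04 (adjusted p 0.802) and Pcdh19 at -0.08 (adjusted p 0.581) among the delta-2 genes. Outside the delta genes, Pcdh12 was at -0.09 (adjusted p 0.567) and Pcdh20 at -0.07 (adjusted p 0.456). The single Pcdh genes as a group had a median of -0.03 over 12 genes.

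The classical type I cadherins, which make the strongest adherens junctions, were measured for all 5 genes, and none was called. Limma gave 0 of the 5 an unadjusted p under 0.05, and the analysis of variance called 0. Of all clusters limma called 3.93% and gave 30.1% an unadjusted p under 0.05. Cdh2, the N-cadherin of neural cells, gave 8.19, 8.19, 8.14 and 8.02 in AD cells and 8.20, 8.05, 8.03 and 8.20 in AI cells. The arrays of the phenotypes overlapped throughout (difference 0.02, SE 0.07, limma adjusted p 0.90). Cdh1, the E-cadherin of epithelia, was dim on all 8 arrays, at 5.16 ± 0.08 in AD cells and 5.08 ± 0.05 in AI cells (SD, n = 4 each), a difference of 0.08 (adjusted p 0.425).

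Cdh3, Cdh4 and Cdh15, the P-, R- and M-cadherins, were at 0.11, 0.11 and 0.07 (adjusted p 0.528, 0.519 and 0.588). Cdh3 and Cdh4 were dim on all arrays and Cdh15 on all but an AD array. Of the 13 type II genes, Cdh18, a cadherin of the nervous system, passed the adjusted p. It gave 5.96, 6.01, 5.98 and 6.00 in AD cells and 5.51, 5.64, 5.53 and 5.53 in AI cells, with all AD arrays above all AI arrays (difference 0.44, SE 0.05, limma adjusted p 0.000478). Its dimmer cluster was at 0.12 (adjusted p 0.187), and the mean of both gave 0.28 (adjusted p 0.00503).

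The bright type II genes Cdh11, Cdh22 and Cdh24 were at -0.02, 0.11 and 0.15 (adjusted p 0.902, 0.414 and 0.136). Another 3 clusters carried the Cdh11 symbol together with those of other genes and were not used. Among the other Cdh genes, Cdh13, which is anchored to the membrane by lipid, was at 0.12 (adjusted p 0.234), Cdh16 of kidney at -0.05 (adjusted p 0.633) and Cdh17 of intestine and liver at 0.23 (adjusted p 0.058). Taking the 23 Cdh genes as a group, 0 were called, beside 3.93% of all clusters, and the median was 0.05. By limma 4 of them (17.4%) had an unadjusted p under 0.05, beside 30.1% of all clusters.

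**Figure D3:**
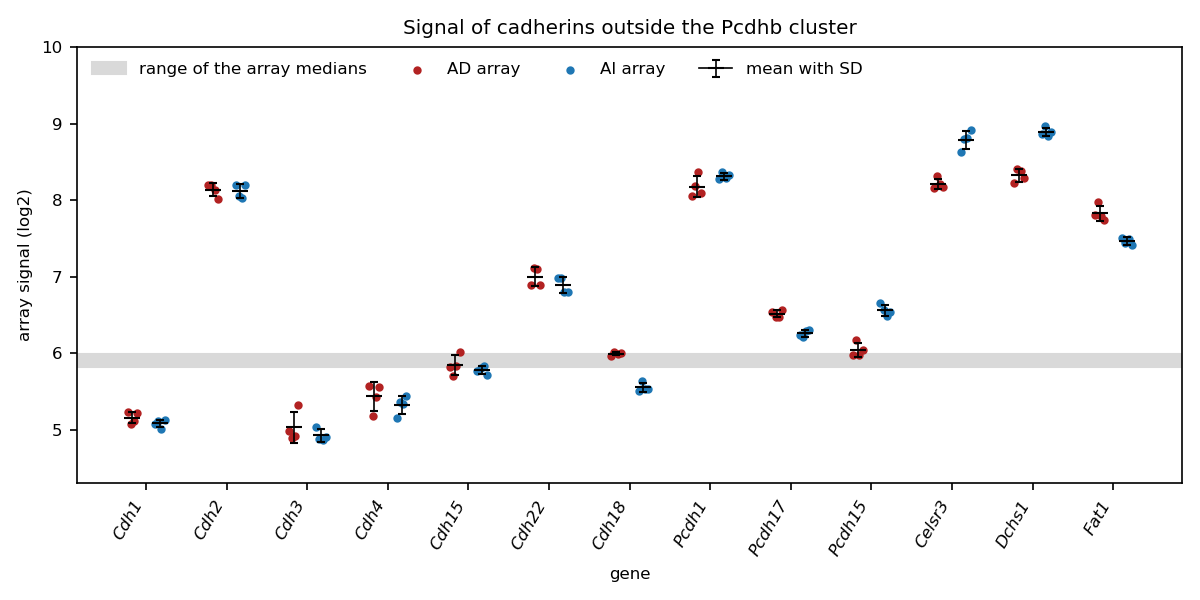
Log2 signal (vertical axis) of 13 members outside the beta protocadherins (horizontal axis) on each AD and AI array, 1 point per array, with the mean and SD of 4 arrays in black and the range of the array medians as a grey band. Celsr3 and Dchs1 lie higher on the AI arrays, Fat1 and Cdh18 higher on the AD arrays, and the arrays of Cdh2 overlap between 8.02 and 8.20.

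Genes that work with the cadherins were taken as 10 lists, of which 118 genes had a cluster of their own. Of these, 2 were called higher in AD cells and 1 higher in AI cells, or 2.54% beside 3.93% of all clusters. At any fold 18 passed the adjusted p with a higher AD signal (15.3% beside 8.50% of all clusters). With a higher AI signal 12 passed it (10.2% beside 9.62%). Among clusters with a single symbol, from which the lists were drawn, 10.9% and 10.3% passed it in these directions. The 22 catenins and adherens junction adaptors held 0 calls. Limma gave 9 of them an unadjusted p under 0.05 (40.9% beside 30.1% of all clusters). Ctnnb1, the beta-catenin that binds classical cadherin tails, was the brightest, at 0.21 (limma adjusted p 0.0182). Of the 22, 4 passed the adjusted p with a higher AD signal, with Pkp4 the widest (0.39, limma adjusted p 0.00424). Vcl passed it with a higher AI signal (-0.24). Of the 5 nectins, which start cell contacts, 2 passed it, both higher in AI cells. These were Nectin2 at -0.43 (adjusted p 0.00135) and Pvr at -0.35 (adjusted p 0.0107). None of the 12 desmosome genes passed the adjusted p, with Pkp2 at 0.20 (adjusted p 0.0628) and 1 gene at an unadjusted p under 0.05. Clstn1, a calsyntenin of synapses, was at -0.31 (adjusted p 0.00706) and Clstn3 at -0.52 (adjusted p 0.00113).

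Among 10 genes of enzymes that process or cleave cadherins, 1 was called in each direction (20.0% beside 3.93% of all clusters). Both called genes are proteases. At any fold 3 passed the adjusted p in each direction (30.0% each, beside 8.50% higher in AD cells and 9.62% higher in AI cells). Those below 1.5-fold were Adam17 (0.36), Aph1a (0.24), Psen2 (-0.54) and Adam15 (-0.24). Ncstn, the brightest of the list, was at -0.17 (limma adjusted p 0.067). Furin, which trims cadherin precursors, gave 9.60, 9.73, 9.74 and 9.67 in AD cells and 8.74, 8.92, 8.82 and 8.83 in AI cells. It was 1.81-fold higher in AD cells (difference 0.86, SE 0.06, limma adjusted p 2.9e-05). Mmp9, a secreted gelatinase, gave 5.53, 5.73, 5.69 and 6.00 in AD cells and 6.82, 6.88, 6.69 and 6.66 in AI cells, and was 2.03-fold higher in AI cells (difference -1.02, SE 0.10, limma adjusted p 0.000194). Neither overlapped between the phenotypes. Mmp9 lay above the median on 1 AD array and on all 4 AI arrays.

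The regulators of the protocadherin gene arrays include Ctcf and the cohesin ring, which bring promoters to a distant enhancer, and silencers such as Smchd1 and Setdb1. All 13 were higher on average in AD cells, the direction opposite to that of the Pcdhb genes, with a median of 0.24 and a lowest value of 0.11. Among the 21789 single-symbol clusters 11925 were higher on average in AD cells. Of the 13, 6 passed the adjusted p and Stag1 was called. In that direction 8.50% of all clusters passed it and 1.39% were called, and 10.9% of single-symbol clusters passed it. Ctcf was at 0.51 (limma adjusted p 0.00502), Smchd1 at 0.22 (adjusted p 0.111) and Setdb1 at 0.24 (adjusted p 0.114). Stag1, a cohesin subunit, gave 8.41, 8.44, 8.28 and 7.98 in AD cells and 7.62, 7.50, 7.50 and 7.57 in AI cells, 1.66-fold higher in AD cells (difference 0.73, SE 0.10, limma adjusted p 0.00109). Rad21, the brightest of the list, was at 0.22 (adjusted p 0.0683). AD replicate 4 was the lowest AD array for Ctcf, Rad21, Smc3, Stag1, Stag2, Nipbl, Wapl, Smchd1, Setdb1 and Dnmt3b. It was not the lowest for Smc1a, Rest or Wiz. Without AD replicate 4, 5 partner genes were called in place of 3. How many of the 13 differences are separate was not tested. Whether the regulators have a part in the Pcdhb difference was not tested.

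The remaining lists held 0 calls by limma and by the analysis of variance. At an unadjusted p under 0.05 there were 6 of 8 repressors of cadherins, 6 of 13 planar polarity partners of Celsr, 7 of 15 Fat and Dachsous partners with the Hippo kinases, and 3 of 12 genes of the WAVE complex and protocadherin kinases, beside 30.1% of all clusters. The adjusted p was passed below 1.5-fold by 3, 2, 2 and 2 genes of these lists in turn. Chosen after their values were seen, these were Zeb2 (0.43), Tcf3 (0.32) and Zeb1 (-0.33), then Dvl1 (-0.53) and Ankrd6 (-0.53), then Mob1b (0.45) and Stk4 (0.34), then Cyfip2 (0.33) and Fyn (-0.34). The brightest genes of the lists were Tcf4 at 0.14 (adjusted p 0.0828), Dvl3 at 0.03 (adjusted p 0.798), Lats1 at -0.16 (adjusted p 0.0815) and Nckap1 at 0.04 (adjusted p 0.603).

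**Figure D4:**
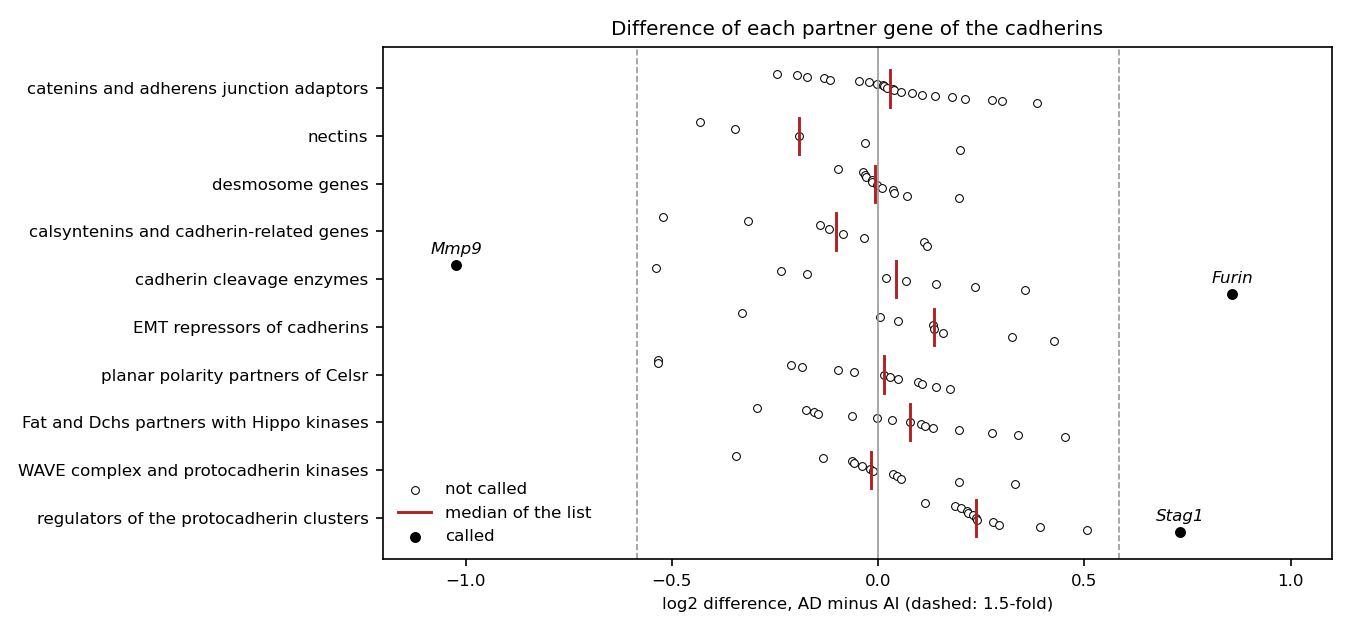
Difference of each partner gene on the log2 scale (AD minus AI, horizontal axis) by list (vertical axis), with called genes filled and named, list medians in red and 1.5-fold dashed. The called genes are Furin at 0.86, Stag1 at 0.73 and Mmp9 at -1.02, and all 13 regulators of the protocadherin gene arrays lie above 0.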

How the data were processed

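RNA of 4 AD and 4 AI Neuro2a samples was labelled and hybridised to Affymetrix mouse gene arrays. The authors deposited log2 signals per transcript cluster, normalised by GCRMA in Partek 6.5 per the submitters' processing notes. The log base was not stated and log2 was taken from the range of the values. Scanner files were not used here. Clusters were named from the platform annotation, where 21789 carried 1 symbol, 1621 several and 12146 none, and all 65 members matched RefSeq (GRCm38.p6) by gene number.

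All 35556 clusters were fitted with limma 3.58.1 in R 4.3.3 (lmFit, eBayes), with AD against AI as the sole term and Benjamini-Hochberg adjustment over all clusters. The fit was tested on simulated data. Single genes were also tested with the exact two-sided permutation test. Named were all called members, all type I cadherins, the 3 brightest members of each other subfamily, up to 5 members per direction past the adjusted p below 1.5-fold and, per partner list, up to 3 called genes per direction and the brightest. Pcdhb genes below the fold, Fat2, Fat4, further partner genes and markers were named in addition, after their values were seen. The members and lists were chosen with earlier results of these data known. Alternatives were quantile normalisation, median centring, a filter on dim clusters, array weights, other moderation, a replicate block, other thresholds and leaving out each array. The number of arrays limits the precision.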

Additional observations from a re-analysis of the deposited data

Results flagged for a closer look

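In 8 of the 108 groups of 4 arrays examined 1 array stood apart from the other 3, where chance alone gives about 5.4 such groups. Among the Pcdhb genes these were AD replicate 2 for Pcdhb18, at 5.58 where the other AD arrays ran from 5.96 to 6.02, and AI replicate 4 for Pcdhb3, at 6.99 where the other AI arrays ran from 6.66 to 6.72. Both genes were called without these arrays too. AI replicate 4 also stood above the other AI arrays for Cdh24 (6.59), Pcdh19 (5.18) and Pcdh7 (5.16). AD replicate 2 was low for Pcdh9 (4.95). Among the partner genes, AD replicate 4 was low for Nckap1 (11.19) and AI replicate 2 was low for Pvr (9.77).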

How the results depend on the processing

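The 8 Pcdhb calls were shared by the fits with array weights, trend and robust moderation, no moderation, a mean over a gene's clusters and the filter on dim clusters, which tested 17 of the 22 genes. Leaving out each array gave 7 to 8 Pcdhb calls, 7 to 9 calls of members higher in AI cells, 3 to 5 partner calls, Pcdhb medians of -0.48 to -0.42 and family medians of -0.07 to -0.02. Median centring moved the median of all clusters to 0.08 and gave a Pcdhb median of -0.36 and a family median of 0.023, and quantile normalisation gave a Pcdhb median of -0.38. Without dim clusters the family median was -0.31 over 34 genes. At 1.3-fold the calls were 16 members higher in AI cells (13 of them Pcdhb), 1 higher in AD cells and 13 partner genes. At 2-fold they were 0, 0 and 1 partner gene, and at any fold, a setting added after seeing the data, 22 members (19 Pcdhb), 3 and 30. Differences near 0 changed sign for Fat3 with the mean of its clusters (0.064), for Cdh11 (0.0605), Cdh16 (0.023), Pcdh10 (0.039), Pcdh20 (0.0036) and Pcdh9 (0.054) with median centring, and for Cdh11 (0.071) and Pcdh10 (0.0017) after quantile normalisation. With each array left out in turn the sign also changed for Cdh2 (-0.012 to 0.056), Cdh11 (-0.056 to 0.016), Pcdh10 (-0.097 to 0.0067), Pcdh9 (-0.046 to 0.015) and the partner gene Dvl3 (-0.0012 to 0.052). None of these passed the adjusted p, and the causes were not tested. Same-numbered AD and AI arrays did not deviate together (correlations -0.112, 0.078, 0.005 and -0.175), and with the replicate number as a block 8 Pcdhb genes were called, 16 passed the adjusted p at any fold, and 1352 clusters were called in place of 1396.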
